A study of Mus musculus with 18 samples.

Results

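The cytosolic ribosomal protein genes encode the protein part of the ribosome, and their messages were followed in mouse thymus through the 3 main kinds of invariant natural killer T cell (iNKT cell). Members were chosen by symbol alone: Rpl or Rps followed by a digit, plus Rplp0, Rplp1, Rplp2 and Rpsa, without the ribosomal S6 kinases (Rps6k) and without symbols marked -ps, with at least 10 counts summed over all libraries. The rule found 84 of the 15582 genes that had a count: 31 proteins of the small (40S) subunit, 45 of the large (60S) subunit and 8 related products that share the symbol pattern. These 8 were the paralogs Rpl3l, Rpl7l1, Rpl22l1, Rpl36al, Rpl39l, Rps27l and Rps4y2, and Rps19bp1, which encodes a nucleolar partner of Rps19 and no ribosomal subunit.

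The study sorted NKT1, NKT2 and NKT17 thymocytes from wild-type (WT) and SKG mice on the BALB/c background, with 3 libraries in each of 6 groups. SKG mice carry a spontaneous point mutation in Zap70, the kinase that relays signals from the T cell antigen receptor (TCR), and their TCR signals are weakened in every T cell, not in iNKT cells alone. SKG animals had been crossed to BALB/cJ, and WT and SKG descendants of that cross were used. All sorted cells bound the CD1d tetramer loaded with antigen that defines iNKT cells: NKT1 cells were ICOS low and CD49a+, NKT2 cells were CD49a-, Syndecan-1-, ICOS high, CD4 high and TCRβ high, and NKT17 cells were CD49a-, ICOS high and Syndecan-1+. The age and sex of the animals and the number of mice per library are not given in the sources used here.

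A ribosome is built from a small subunit, which reads the message, and a large subunit, which joins amino acids. Each subunit needs its proteins in fixed proportions, so these genes are usually expressed together, and they are among the strongest transcripts of most cells. Their messages typically begin with a terminal oligopyrimidine (TOP) tract, a run of C and T at the transcription start through which the mTORC1 kinase and the protein Larp1 control translation, while Myc-family factors raise their transcription. Developing T cells rely on this supply when they divide and grow, and several ribosomal proteins, Rpl22 among them, are known to be needed for normal T cell development.

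The start of these genes shows the TOP feature in letters. Each line gives the sense strand from 15 bases before to 15 bases after the annotated start in the mouse build GRCm38.p6 from RefSeq, with the longest unbroken run of C and T in capitals. The members shown first have long runs, the others are those on which the results below turn, and Rpl7l1 stands for a paralog without a long run:
Rpl7a, chr2:26910792-26910821, + strand: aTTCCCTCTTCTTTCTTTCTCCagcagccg
Rpl27a, chr7:109519180-109519209, + strand: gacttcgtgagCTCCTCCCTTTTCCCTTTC
Rpl35, chr2:39005117-39005146, - strand: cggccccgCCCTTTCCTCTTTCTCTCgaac
Rpl15, chr14:18270972-18271001, - strand: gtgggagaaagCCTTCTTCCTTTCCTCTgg
Rpl13a, chr7:45128731-45128760, - strand: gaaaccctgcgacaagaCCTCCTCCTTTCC
Rps6, chr4:86857353-86857382, - strand: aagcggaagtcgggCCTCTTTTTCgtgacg
Rpsa, chr9:120127751-120127780, + strand: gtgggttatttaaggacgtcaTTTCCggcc
Rplp0, chr5:115559452-115559481, + strand: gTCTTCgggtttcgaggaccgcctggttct
Rpl5, chr5:107900513-107900542, + strand: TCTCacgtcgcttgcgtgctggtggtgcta
Rpl7l1, chr17:46782642-46782671, - strand: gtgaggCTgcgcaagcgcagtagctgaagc
The run was 21 bases long in Rpl7a, 17 in Rpl15, 13 in Rpl13a and 10 in Rps6, but 5 in Rpsa and Rplp0, 4 in Rpl5 and 2 in Rpl7l1.

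Of the members, 62 had a promoter in the RefSeq table that could be used, 55 of them genes of ribosomal subunits. The background was the 27025 mouse promoters of that table that were used, the first of each symbol, and not every mouse promoter. A run of at least 8 pyrimidines lay in this window in 23 of the 55 (41.8%), against 11.9% of the background. The median longest run was 7 bases against 4. The letters CTCTTTC on the sense strand, searched from 50 bases before to 50 after the start, were present in 10 of 55 (18.2%) against 1.33%. The shorter CTTTC, which CTCTTTC contains, was present in 50.9% against 12.6%. CCGGAAG on either strand, letters of the kind bound by Ets-family factors, was found in 18.2% against 5.48%, and the TATA-box letters TATAAA on the sense strand in 7.27% against 3.69%. These are matches of letters and say nothing of which factor binds, and annotated starts can lie some bases off the true start.

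Depth was between 4391029 and 8895917 counts per library. Markers matched the sort: the summed level of the NKT1 list (in CPM, counts divided by the scaled size of the library) was 3838 to 5201 in NKT1 libraries and 167 to 434 in all others, and the NKT17 list was 2153 to 2483 in NKT17 libraries and at most 14.5 elsewhere. The NKT2 list separated less: it was 1975 to 2510 in NKT2 libraries and 1521 to 1976 in NKT17 libraries. SKG NKT17 replicate 2, at 1976, lay just above SKG NKT2 replicate 2, at 1975, in these unscaled sums. The NKT2 list holds Icos and the NKT17 list Sdc1, the genes of ICOS and Syndecan-1, which were used for the sort. The Zap70 mutation is a base change that counts per gene cannot show, so genotype labels rest on the submitters. In a bulk sample, fewer cells of a kind and less RNA per cell cannot be told apart, and a share of counts says nothing of the number of ribosomes per cell.

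Ribosomal protein messages took 4.09% to 8.08% of all counts of a library, and the share was highest in NKT2 cells. In WT NKT2 libraries it was 7.86%, 8.08% and 7.71%, in WT NKT1 libraries 6.14%, 4.6% and 5.43%, and in WT NKT17 libraries 4.97%, 5.74% and 4.09%. In SKG cells it was 7.68%, 6.81% and 7.45% for NKT2, 5.44%, 5.54% and 6.27% for NKT1, and 5.95%, 4.52% and 5.32% for NKT17. All 6 NKT2 libraries lay above the other 12, and NKT1 and NKT17 libraries overlapped. The means were 7.88% ± 0.185 (SD, n = 3) in WT NKT2 and 7.31% ± 0.451 in SKG NKT2, 5.39% ± 0.77 in WT NKT1 and 5.75% ± 0.452 in SKG NKT1, and 4.93% ± 0.827 in WT NKT17 and 5.26% ± 0.717 in SKG NKT17. A sum over chosen members was not tested; the tests below are per gene.

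Subunit balance moved far less than the total. The counts of 60S members divided by those of 40S members lay between 1.435 and 1.587 in all 18 libraries, with group means of 1.49 and 1.475 in WT and SKG NKT1, 1.48 and 1.46 in NKT2, and 1.53 and 1.54 in NKT17. This ratio of counts depends on transcript lengths, so it is no ratio of proteins. It was 1.502 to 1.575 in SKG NKT17 and 1.435 to 1.472 in SKG NKT2 libraries, which did not overlap, whereas WT NKT17 libraries began at 1.492 and WT NKT2 libraries reached 1.493. No test was made of this sum over members.

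**Figure D1:**
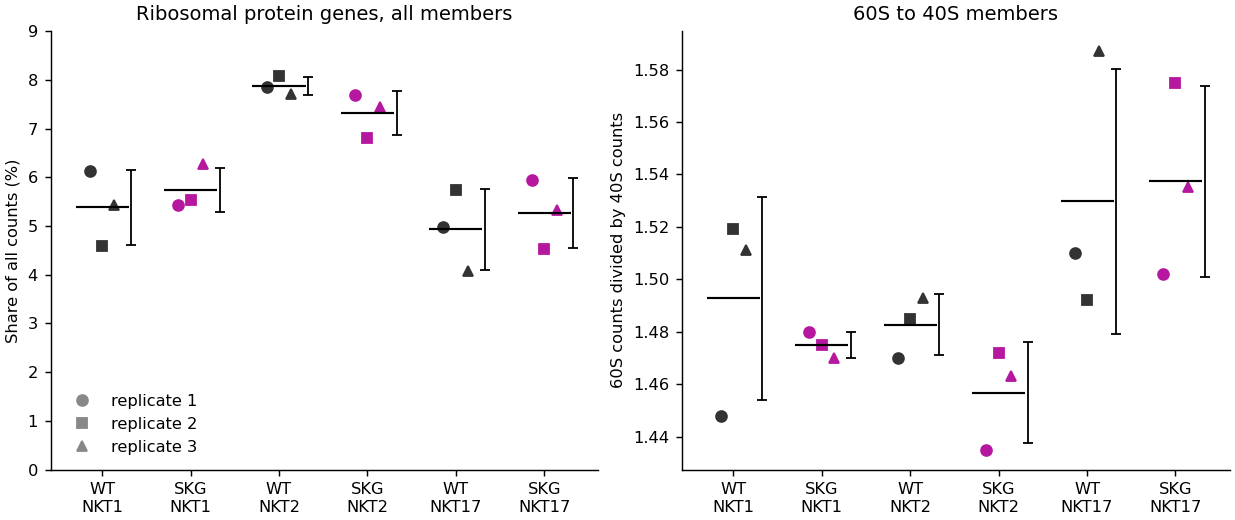
The left panel plots the share of all counts taken by the members (%, y axis from 0) and the right panel the counts of 60S members divided by those of 40S members, for each of the 18 libraries by group (x axis). WT is dark and SKG magenta, marker shapes give the replicate, the line is the group mean and the bar ± 1 SD. All 6 NKT2 libraries sit above 6.8% and the other 12 below 6.3%, while the ratio stays between 1.435 and 1.587.

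Individual members spanned a wide range of levels. Of the 50 genes with the highest mean CPM in the whole table, 7 were members, and 63 of the members were among the highest 500. Per kilobase of transcript, Rps28, of the 40S subunit (2748 CPM per kb), and Rpl13, of the 60S subunit (2383), were highest. Rps4y2 (1.35 CPM per kb), the large-subunit gene Rpl30 (3.54) and the Rpl39 paralog Rpl39l (4.97) were lowest. Rpl5, a 60S protein that carries the 5S rRNA and can bind Mdm2, had the highest CPM without regard to length, with a mean of 2952 over all libraries, followed by the stalk protein Rplp0 at 2256.

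A few core members had very low levels. Rpl26 had 0 counts in all 18 libraries, and since that allows up to 3 counts over all libraries together, its level was below 0.0288 CPM. Rpl10l, a retrocopy known from testis, had 2 counts in all and stayed under the minimum of 10. Rpl26 and the core 60S gene Rpl30 are needed in every cell, so these values are not read as levels of their messages. Since many ribosomal protein genes have copies of their sequence elsewhere in the genome, every 50-base window of a member's transcripts, the length of the reads, was searched against the genome build NCBIM37 for an exact match outside its own gene. Over the 82 members with a transcript, a median of 35.45% of windows had no second match, and 12 members had fewer than 10% of such windows. For Rps27, which encodes a zinc-finger protein of the 40S subunit, 0.338% of windows were unique and its level was 12.8 CPM per kb, whereas Rpl24, of the 60S subunit, had 100% unique windows. The Rpl24 transcript used was 4999 bases long, the longest of any member, so its windows may not describe the usual message. Rpl30 and Rpl34, also low, had 37.2% and 35.96%, near the median, and the median level was 705.2 CPM per kb for members under 10% unique and 712.9 CPM per kb for those at least 50% unique. Whether reads with several matches were discarded in counting is not given in the sources used here, and the part of these copies in the levels was not tested.

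**Figure D2:**
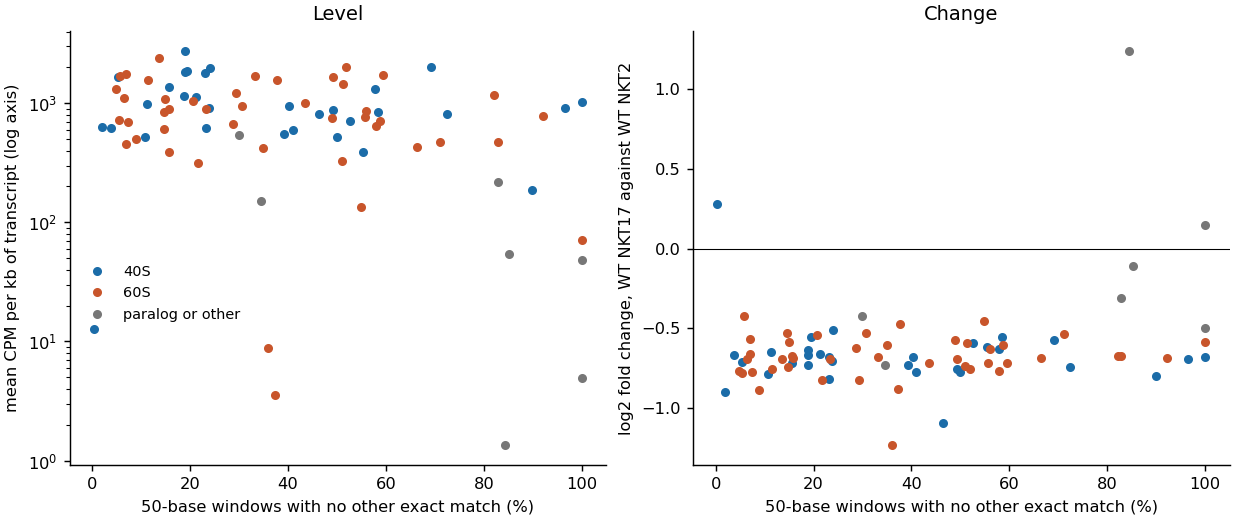
Each point is a tested member: the x axis is the percentage of its 50-base transcript windows with no other exact match in the genome, and the y axis is its mean CPM per kb (left, log axis) or its log2 fold change between WT NKT17 and WT NKT2 cells (right). Levels range from 1.35 to 2748 CPM per kb, and the fold changes of members with many and few unique windows lie in the same band, with medians of -0.63 and -0.69.

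The first question was how the 3 subsets differ in WT mice. A gene is said to pass, to rise or to fall where edgeR's adjusted p, over all 11118 genes tested, was under 0.1, and it is called where the change was also at least 1.5-fold. Of the 84 members 83 could be tested; Rpl3l, a paralog known from muscle with 21 counts in all, was too low. The largest difference lay between NKT17 and NKT2 cells. Lower in NKT17 were 74 of the 83 members, beside 13.6% of all tested genes that fell, and 62 were called, beside 8.97%. No member rose. The median log2 fold change of the members was -0.68, a 1.60-fold lower level, with quartiles of -0.74 and -0.59, while the median of all tested genes was 0.01. In 75 members every NKT17 library lay below every NKT2 library, beside 18.8% of all tested genes.

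The medians of the subunits were alike. Among 40S genes 29 of 31 fell, 26 of them called, and among 60S genes 43 of 45 fell, 35 of them called, with a median of -0.68 in each. Of the 7 paralogs and other products 2 fell and the median was -0.31.

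**Figure D3:**
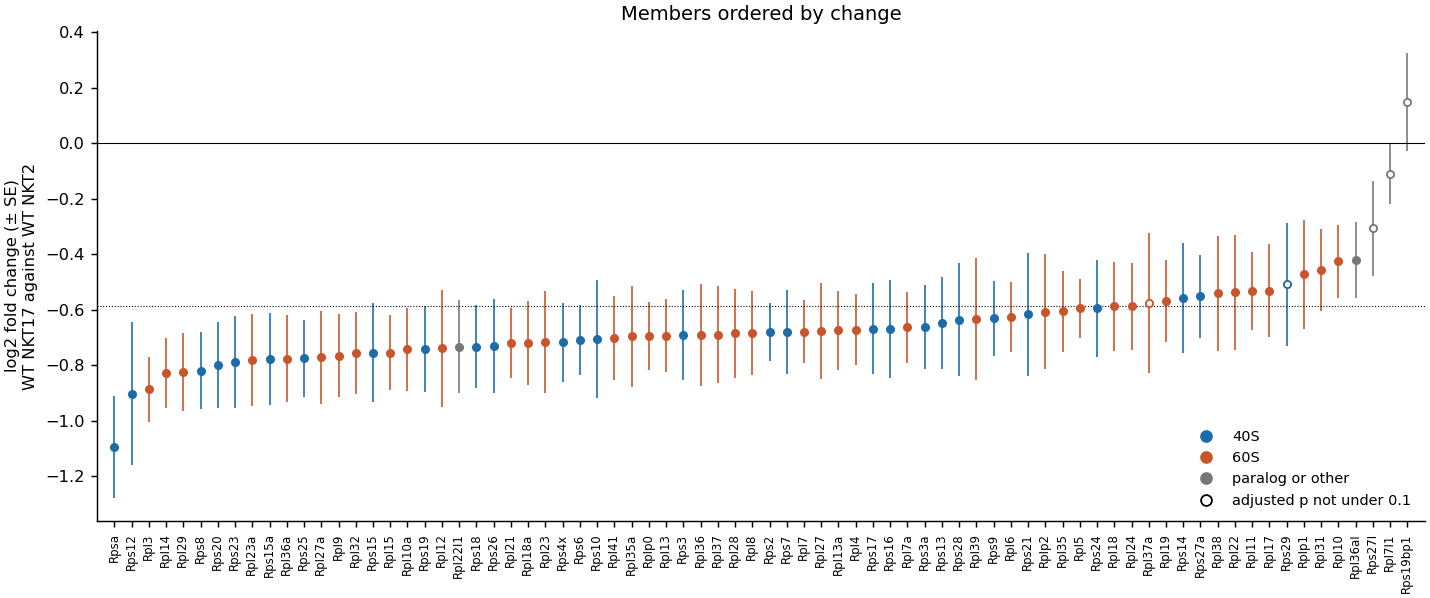
The log2 fold change of WT NKT17 against WT NKT2 cells (y axis, ± SE from the edgeR fit) is drawn for 76 tested members with a mean of at least 10 CPM, ordered by their change (x axis). Blue marks 40S, orange 60S and grey paralogs and other products, open symbols did not pass, and the dotted line is a 1.5-fold fall. From Rpsa at the left edge (-1.09) most members form a nearly flat series around -0.68, and of the grey points Rpl22l1 (-0.73) lies among the larger falls and the others toward the right.

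The largest well-measured fall was that of Rpsa (chr9:120036884-120041487, + strand, NCBIM37), the 40S protein also known as the laminin receptor. Its level was 2362, 2115 and 1996 CPM in WT NKT2 libraries, 1746, 1116 and 1411 CPM in WT NKT1 libraries and 1050, 1204 and 776.0 CPM in WT NKT17 libraries. NKT2 libraries were all higher than the rest, and one NKT1 library fell among those of NKT17. The log2 fold change of NKT17 against NKT2 was -1.09 (SE 0.18), with an edgeR adjusted p of 0.000203.

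Rpl3 (chr15:79908211-79913836, - strand), a 60S protein close to the catalytic centre, stood at 1022, 922.2 and 967.0 CPM in WT NKT2 and at 526.3, 593.1 and 455.7 CPM in WT NKT17 libraries. The groups did not overlap, and the change was -0.89 (SE 0.12, edgeR adjusted p = 4.7e-06). Rpl14 (chr9:120480632-120483770, + strand), a 60S protein, fell from 1165, 1252 and 1086 CPM to 639.9, 806.3 and 527.9 CPM, a change of -0.83 (SE 0.13, edgeR adjusted p = 2.83e-05). Its libraries likewise did not overlap. Rps12 (chr10:23504990-23507015, - strand), a 40S protein, fell from 449.2, 509.6 and 410.0 CPM to 257.7, 308.0 and 167.2 CPM, a change of -0.90 (SE 0.26, edgeR adjusted p = 0.0191). The spread between NKT17 libraries was wider here than for Rpl3.

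The stalk of the large subunit, which recruits elongation factors, is made of Rplp0, Rplp1 and Rplp2, and all 3 fell. Rplp0 (chr5:116009476-116013736, + strand) stood at 3100, 3240 and 2928 CPM in WT NKT2 and 1942, 2254 and 1531 CPM in WT NKT17 libraries, a change of -0.69 (SE 0.12, edgeR adjusted p = 0.00016). Rplp2 changed by -0.61 (SE 0.21, edgeR adjusted p = 0.0423). Rplp1 changed by -0.47 (SE 0.20) and, at an edgeR adjusted p of 0.0994, passed just inside the threshold.

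Other members of known role, in the ribosome or outside it, fell as well. Rps6, the substrate of the S6 kinases, stood at 1982, 1913 and 1758 CPM in WT NKT2 and 1173, 1385 and 899.4 CPM in WT NKT17 libraries, a change of -0.71 (SE 0.13, edgeR adjusted p = 0.00016). Rpl5 (chr5:108329521-108338024, + strand) fell from 3017, 3988 and 3559 CPM to 2129, 2719 and 2145 CPM, a change of -0.60 (SE 0.11, edgeR adjusted p = 0.00021). Its partner in binding Mdm2, Rpl11, changed by -0.53 (edgeR adjusted p = 0.0075). Rps19, whose human counterpart is mutated in Diamond-Blackfan anaemia, changed by -0.74 (edgeR adjusted p = 0.00119), and Rps3, which also takes part in DNA repair, by -0.69 (edgeR adjusted p = 0.00337). Rps27a, made as a fusion with ubiquitin, changed by -0.55 (edgeR adjusted p = 0.0095). Rpl10, which joins the large subunit late in its assembly, changed by -0.43 (edgeR adjusted p = 0.0203), Rps4x, a 40S protein from the X chromosome, by -0.72 (edgeR adjusted p = 0.000623), and Rpl39, at the mouth of the exit tunnel, by -0.63 (edgeR adjusted p = 0.0493).

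Paralogs can replace a ribosomal protein or act outside the ribosome. Rpl22, the core gene, changed by -0.54 (edgeR adjusted p = 0.0744), and its paralog Rpl22l1 fell from 93.61, 91.75 and 86.33 CPM in WT NKT2 to 57.40, 59.64 and 46.53 CPM in WT NKT17 libraries, a change of -0.73 (edgeR adjusted p = 0.00217). Rpl7l1 stood at 153.9, 158.3 and 165.7 CPM in WT NKT2 and 156.2, 147.3 and 139.3 CPM in WT NKT17 libraries and did not pass (-0.11, edgeR adjusted p = 0.524). Rps27l, known as a target of p53, did not pass (-0.31, edgeR adjusted p = 0.231), nor did Rps19bp1 (0.15, edgeR adjusted p = 0.626). Rps27 (0.28, edgeR adjusted p = 0.738) and Rpl30 (-0.88, edgeR adjusted p = 0.355) are core genes that did not pass, both with few counts. Rpl39l (-0.50, edgeR adjusted p = 0.675) and Rps4y2 (1.24, edgeR adjusted p = 0.455) had few counts too. Rpl34, a 60S gene chosen after its values were seen, had a change of -1.23 (edgeR adjusted p = 0.0747) that rests on 9 to 24 counts per WT NKT17 library.

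Members with unique and with repeated sequence were also compared. The 29 members with at least 50% unique windows had a median change of -0.63, with 24 falling, and the 53 others had -0.69, with 49 falling. The sets differ in class: the 29 include Rpl7l1, Rpl39l, Rps27l, Rps4y2 and Rps19bp1, paralogs or other products, and none of these passed.

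NKT1 cells were also below NKT2 cells, by less. In WT mice 51 of 83 members were lower in NKT1, beside 19.5% of all tested genes, 18 of them called, beside 13.7%, and none was higher. The median change was -0.41, a 1.33-fold lower level, and in 60 members no NKT1 library reached an NKT2 library, beside 21.7%. Of the 40S genes 19 of 31 fell and of the 60S genes 29 of 45, with 3 of the 7 paralogs and other products.

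The members with the largest falls were Rps26, Rpl28, Rps20 and Rpl15. Rps26 (chr10:128061586-128063562, - strand), a 40S protein at the exit of the message, stood at 242.3, 143.6 and 202.3 CPM in WT NKT1 and 372.4, 352.8 and 366.5 CPM in WT NKT2 libraries, a change of -0.89 (SE 0.17, edgeR adjusted p = 0.000332). Rpl28 (chr7:4744476-4746164, + strand), a 60S protein, changed by -0.78 (SE 0.16, edgeR adjusted p = 0.000606) from 325.6, 342.4 and 331.2 CPM to 220.7, 155.4 and 203.7 CPM. In neither did the libraries overlap.

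Rps20 (chr4:3758481-3762812, - strand), a 40S protein, stood at 680.1, 472.2 and 564.7 CPM in WT NKT1 and 932.6, 1046 and 903.4 CPM in WT NKT2 libraries, a change of -0.75 (SE 0.16, edgeR adjusted p = 0.000829). Rpl15 (chr14:19100337-19103905, - strand), the 60S gene with a start run of 17 pyrimidines, stood at 1244, 894.0 and 1130 CPM against 1793, 1867 and 1749 CPM, a change of -0.73 (SE 0.13, edgeR adjusted p = 0.000195). These groups were likewise apart. Rpl37, Rpl38 and Rpl13a did not pass in this comparison, with changes of -0.05 (edgeR adjusted p = 0.856), -0.05 (edgeR adjusted p = 0.888) and -0.14 (edgeR adjusted p = 0.489).

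Rpl5 did not pass either. Its WT NKT1 levels of 2904, 3051 and 3184 CPM overlapped the WT NKT2 levels given above, and the change was -0.21 (SE 0.11, edgeR adjusted p = 0.148).

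NKT1 and NKT17 cells differed least among the WT subsets. Higher in NKT1 were 22 of 83 members, beside 16.2% of all tested genes, and 1, Rpl37, was called, beside 11.2%; no member was lower. The median change was 0.27. With a library left out the number that rose ran from 3, without WT NKT1 replicate 1 or WT NKT17 replicate 3, to 39, without WT NKT17 replicate 2, and the median from 0.09 to 0.42, and with these 6 libraries fitted alone 3 rose. In 4 members the libraries did not overlap with NKT1 higher, beside 16.1%. The share of members with apart libraries was thus below that of all genes.

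Rpl37 (chr15:5066613-5069140, + strand), a zinc-finger protein of the 60S subunit, stood at 518.3, 305.3 and 403.0 CPM in WT NKT1 and 250.5, 327.3 and 211.9 CPM in WT NKT17 libraries, a change of 0.64 (SE 0.17, edgeR adjusted p = 0.00886), although 1 NKT1 library lay among those of NKT17. Rpl13a (chr7:52380928-52391787, - strand), which also represses translation of inflammatory messages in myeloid cells, stood at 865.1, 651.1 and 684.6 CPM against 502.7, 599.9 and 419.7 CPM, without overlap, a change of 0.53 (SE 0.14, edgeR adjusted p = 0.00668). Rpl5 was higher by 0.39 (SE 0.11, edgeR adjusted p = 0.00856), also without overlap. Rpsa was higher by 0.50 (SE 0.18, edgeR adjusted p = 0.051) and Rpl38, known for its effect on translation of Hox messages, by 0.49 (SE 0.21, edgeR adjusted p = 0.0911), and in both the libraries overlapped. Rpl13a, Rpl37 and Rpl5 were the 3 members that passed whichever of the 6 libraries was left out.

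Place in the order of subsets was not the same for every named member. Rpl15 and Rps20 were below NKT2 in both other subsets, and between NKT1 and NKT17 they did not pass (0.03 and 0.05, edgeR adjusted p = 0.915 and 0.853). Rpl37 and Rpl13a passed against NKT2 in NKT17, with changes of -0.69 and -0.67 (edgeR adjusted p = 0.00643 and 0.00119), and not in NKT1. Rpsa and Rpl3 passed in all 3 comparisons, highest in NKT2 and lowest in NKT17, and NKT1 against NKT2 was -0.60 for each (edgeR adjusted p = 0.0175 and 0.000356).

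**Figure D4:**
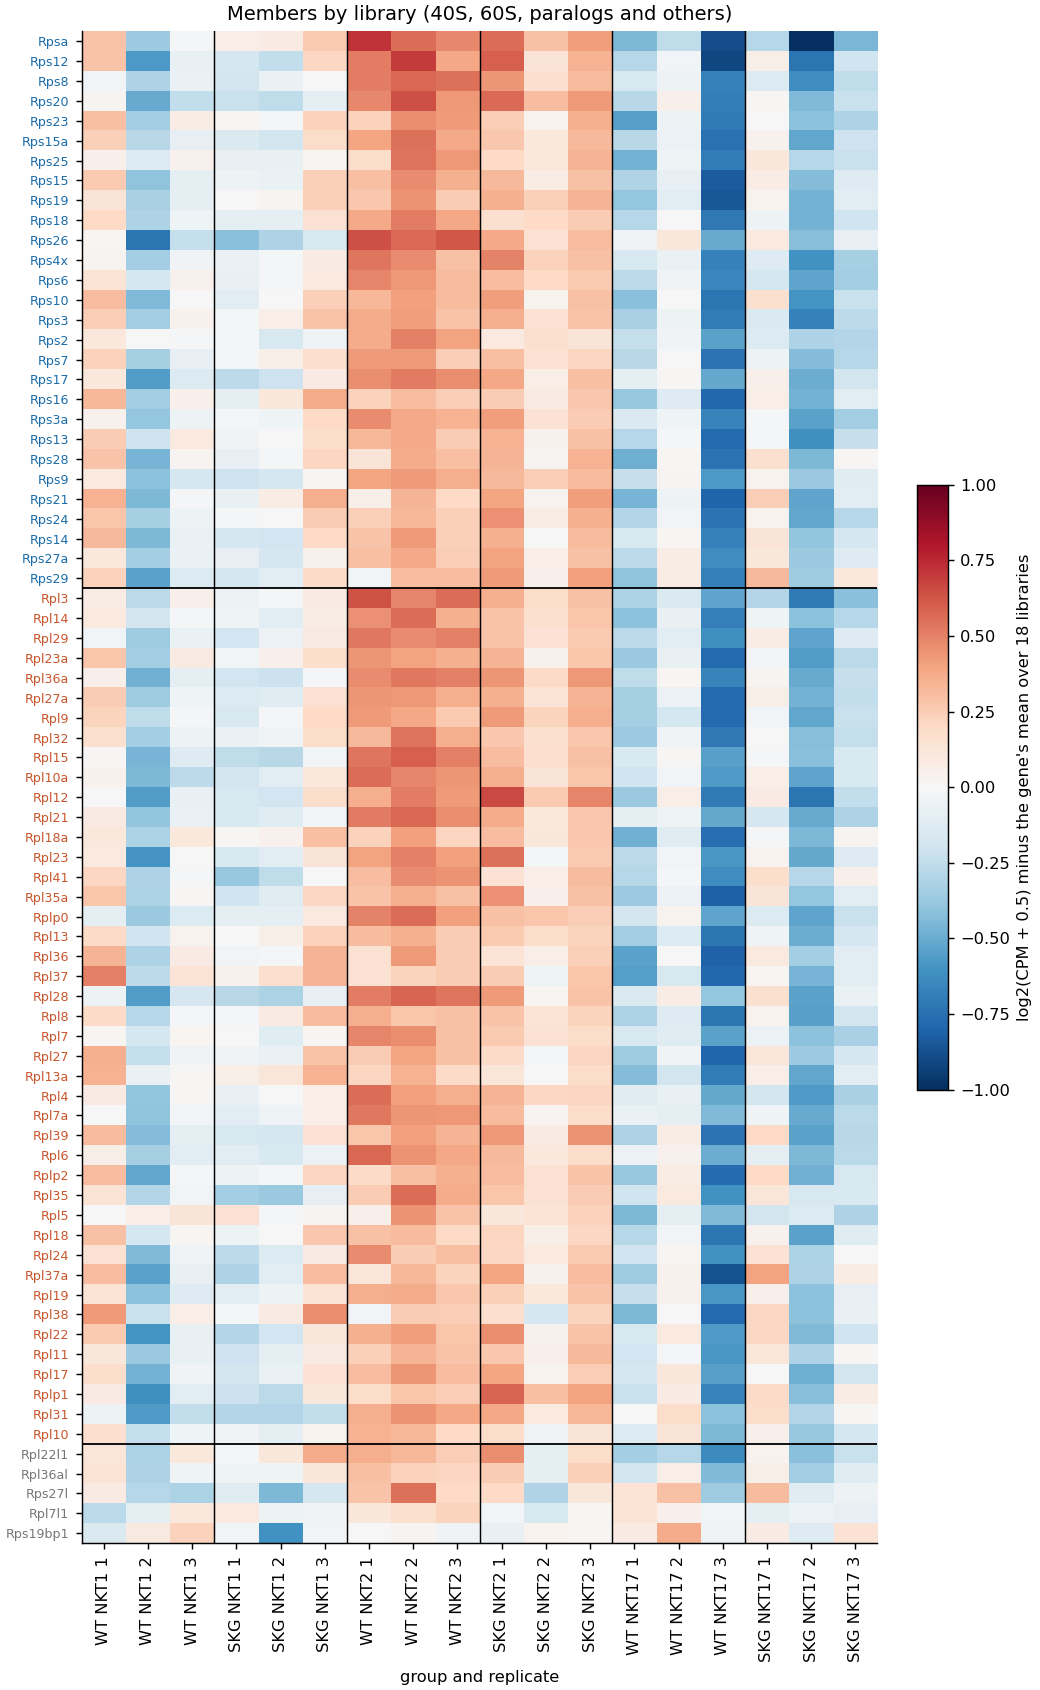
Rows are 76 tested members with a mean of at least 10 CPM, ordered within 40S, 60S and paralogs and others by their change between WT NKT17 and NKT2, and columns are the 18 libraries by group and replicate. Colour gives log2(CPM + 0.5) minus the gene's mean over all libraries, from -1 (blue) to 1 (red). NKT2 columns are red in nearly all rows, and the other groups hold whole columns that are paler or bluer than their neighbours, such as WT NKT17 replicate 3.

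Members deviated together within libraries of a group. In WT NKT17 replicate 3, 82 of 83 members were below the mean of their group, with a median log2 deviation of -0.34, and in replicate 2 of that group 80 were above it, by 0.30. In WT NKT1, replicate 1 had 80 members above (0.25) and replicate 2 had 80 below (-0.27), and in SKG NKT17 replicate 1 had 81 above (0.24) and replicate 2 had 79 below (-0.26). Members therefore share library effects and are not independent of each other. The median biological coefficient of variation was 14.6% for members and 19.2% for all genes.

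Single libraries moved the counts. Without WT NKT17 replicate 3 the called members between NKT17 and NKT2 were 20 and the passing ones 60, and without any other library the called count was 55 to 73. For NKT1 against NKT2 the called count ran from 7, without WT NKT1 replicate 2, to 34, without WT NKT1 replicate 1. For NKT1 against NKT17 it was 0 without WT NKT1 replicate 1 or WT NKT17 replicate 3 and 6 and 9 without WT NKT1 replicate 2 and WT NKT17 replicate 2. Summed immediate-early messages, which are raised by handling and by TCR signals, were 3476, 1593 and 5324 CPM in WT NKT17, 3221, 1769 and 4237 CPM in WT NKT1 and 1741, 1016 and 2223 CPM in WT NKT2 replicates. Among WT libraries they were highest in NKT17 replicate 3, the library with the lowest ribosomal protein share. SKG NKT17 libraries had 3182, 5530 and 3867 CPM, the highest in replicate 2, which had the lowest share of the SKG libraries. In NKT1 cells it was otherwise: WT NKT1 replicate 2 had both the lowest share and the lowest immediate-early sum of its group, as had SKG NKT1 replicate 1, at 2314 CPM against 4149 and 3018 CPM. The part of these messages in the results was not tested.

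Sample titles carry a token that recurs across subsets, with no stated meaning. Within the 6 sets of 3 libraries that share genotype and token, NKT2 had the highest share of ribosomal protein counts in 6, and NKT1 was above NKT17 in 4. The median member difference between WT NKT17 and NKT2 was -0.65, -0.45 and -0.99 in the 3 sets, and between WT NKT1 and NKT17 it was 0.45, -0.31 and 0.62, so the last order did not hold in every set.

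SKG subsets stood in the same order, with medians closer to 0. Between SKG NKT17 and NKT2 cells 43 of 83 members were lower in NKT17, beside 12.7% of all tested genes, 9 of them called, beside 8.27%, with a median of -0.40. The number that fell ran from 21 to 60 with a library left out. The called count was 2 without SKG NKT17 replicate 2 and 4 without SKG NKT2 replicate 1, and it was 29 without SKG NKT17 replicate 1 and 18 without SKG NKT2 replicate 2. Between SKG NKT1 and NKT2 cells 16 were lower in NKT1, beside 11.7%, and 1, Rps20, was called, beside 8.63%, with a median of -0.25; the called count was 0 without SKG NKT2 replicate 1, 6 without SKG NKT2 replicate 2 and 5 without SKG NKT1 replicate 3. Between SKG NKT1 and NKT17 cells 10 were higher in NKT1, beside 16.1%, and 1, Rpsa, was called, beside 10.2%, with a median of 0.18; Rpsa was not called without SKG NKT17 replicate 2. No member passed in the opposite direction in these 3 comparisons. Fitted with the compared libraries alone, 68 members fell in SKG NKT17 against NKT2, 47 fell in SKG NKT1 against NKT2 and 20 rose and 1 fell in SKG NKT1 against NKT17, beside 17.0%, 15.8%, 19.2% and 19.3% of all tested genes. In WT cells the same fits gave 75 and 54 falls and 3 rises, beside 13.4%, 16.5% and 12.4% of all tested genes. The WT and SKG numbers thus lay closer in the comparisons with NKT2, and the SKG number was the larger for NKT1 against NKT17. The share of all tested genes was also larger in SKG than in WT for NKT17 against NKT2 and for NKT1 against NKT17. With a library left out, 6 to 18 members fell in SKG NKT1 against NKT2 and 2 to 22 rose in SKG NKT1 against NKT17.

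Rpsa again fell furthest among well-measured members in NKT17. Its level was 2116, 1756 and 1918 CPM in SKG NKT2, 1497, 1517 and 1714 CPM in SKG NKT1 and 1174, 711.7 and 1042 CPM in SKG NKT17 libraries, and the 3 groups did not overlap. The change of NKT17 against NKT2 was -0.98 (SE 0.18, edgeR adjusted p = 0.0006), and NKT1 was higher than NKT17 by 0.69 (SE 0.18, edgeR adjusted p = 0.00831). Rpl3 changed by -0.74 (SE 0.12, edgeR adjusted p = 4.63e-05) between NKT17 and NKT2, from 846.3, 745.1 and 803.2 CPM to 536.9, 401.1 and 491.7 CPM. Rps20 was lower in SKG NKT1, at 572.1, 559.0 and 625.4 CPM, than in SKG NKT2, at 989.9, 826.8 and 898.6 CPM, by a change of -0.63 (SE 0.16, edgeR adjusted p = 0.00546).

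The WT and SKG comparisons used separate libraries, some of which share title tokens. All 43 members that fell between SKG NKT17 and NKT2 also fell in WT, which is 100% of the SKG and 58.1% of the WT members that fell, beside 61.9% and 57.7% over all tested genes that fell. For NKT1 against NKT2, 15 fell in both, 93.8% of the SKG and 29.4% of the WT members, beside 71.3% and 42.9% over all genes. For NKT1 against NKT17, 7 rose in both, 70.0% and 31.8%, beside 63% and 62.4%. The fold change of NKT17 against NKT2 had the same sign in 82 of 83 members, beside 71.9% of all tested genes. It was farther from 0 in WT in 81 members, beside 52.2%, but, as given below, no member passed the test of that difference.

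The second question was what the Zap70 mutation does in each subset. In NKT1 cells none of 83 members passed, beside 4.20% of all tested genes. In edgeR 1 member had an unadjusted p under 0.05, beside 13.9% of all tested genes, and DESeq2 passed 0. The median change of SKG against WT was 0.03, and in 0 members did every SKG library lie above every WT library, beside 7.58% of all tested genes. In NKT17 cells none passed in edgeR, beside 12.6% of all tested genes, and 0 had an unadjusted p under 0.05, beside 21.6%. DESeq2 passed 0, the median was 0.11, and in 1 member all SKG libraries were the higher ones, beside 13.0%. The sign of both medians turned when single libraries were left out, over ranges of -0.07 to 0.18 and -0.04 to 0.26. For NKT17 the count of 0 moved with single libraries too. Without WT NKT17 replicate 2, 6 members were higher in SKG, beside 5.45% of all tested genes. In that fit 27 had an unadjusted p under 0.05 in edgeR, beside 21.1%. Without SKG NKT17 replicate 2 these numbers were 2 and 15, beside 4.45% and 20.6%.

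In NKT2 cells 1 member passed, the 40S gene Rps2, beside 11.4% of all tested genes, and none was called. Rps2 (chr17:24855061-24858874, + strand), which lines the entry of the message into the ribosome, stood at 2195, 2416 and 2244 CPM in WT NKT2 and 1825, 1898 and 1856 CPM in SKG NKT2 libraries. Every SKG library was lower, the change was -0.30 (SE 0.10), and the edgeR adjusted p was 0.084. It did not pass in any of the 6 fits that left out a library.

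Small downward differences were common in SKG NKT2 cells. The median change was -0.14, a 1.10-fold lower level, 76 of 83 members were below 0, and 31 had every SKG library below every WT library, beside 16.2% of all tested genes. The median ran from -0.18 to -0.07 with a library left out, and was nearest 0 without SKG NKT2 replicate 2. In edgeR 7 members had an unadjusted p under 0.05, beside 20.9% of all tested genes in either direction. Without that library 1 had it, beside 17.4%. When the 6 NKT2 libraries were fitted alone 10 members passed as lower, beside 9.5% of all tested genes. Within the shared title tokens SKG NKT2 was lower in both pairs, at 7.68% against 8.08% and 6.81% against 7.71% of counts. Rpl3, with a change of -0.28 (edgeR adjusted p = 0.159), Rpl15, with -0.29 (edgeR adjusted p = 0.217), and Rplp0, with -0.22 (edgeR adjusted p = 0.33), did not pass. Summed immediate-early messages were 2385, 3432 and 2903 CPM in SKG NKT2 libraries, above those of WT NKT2, and summed proliferation genes were 592.8, 474.6 and 595.1 CPM against 901.9, 773.1 and 935.5 CPM in WT NKT2, with 2 of 8 falling and all 8 below 0. The part of both in the members' values was not tested.

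The difference of the SKG effect between subsets was tested directly. No member passed for NKT2 against NKT1, NKT17 against NKT1 or NKT17 against NKT2, beside 4.13%, 4.52% and 2.26% of all tested genes. Members with an unadjusted p under 0.05 in edgeR numbered 2, 1 and 4, beside 14%, 14.9% and 10.7% of all tested genes. DESeq2 passed 0 in each. The median differences over the members were -0.18 for NKT2 minus NKT1, 0.09 for NKT17 minus NKT1 and 0.25 for NKT17 minus NKT2. With 1 library left out these medians ran from -0.31 to -0.07, from -0.09 to 0.22 and from 0.11 to 0.41, so the sign of the middle one turned. The extremes came without WT NKT1 replicate 1 and replicate 2 for the first, and without WT NKT17 replicate 2 at the top of the others. In the fits without WT NKT17 replicate 2, 1 member passed as higher for NKT17 against NKT2, beside 1.26% of all tested genes. With the compared libraries alone 1 passed as lower for NKT2 against NKT1, beside 1.92%.

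**Figure D5:**
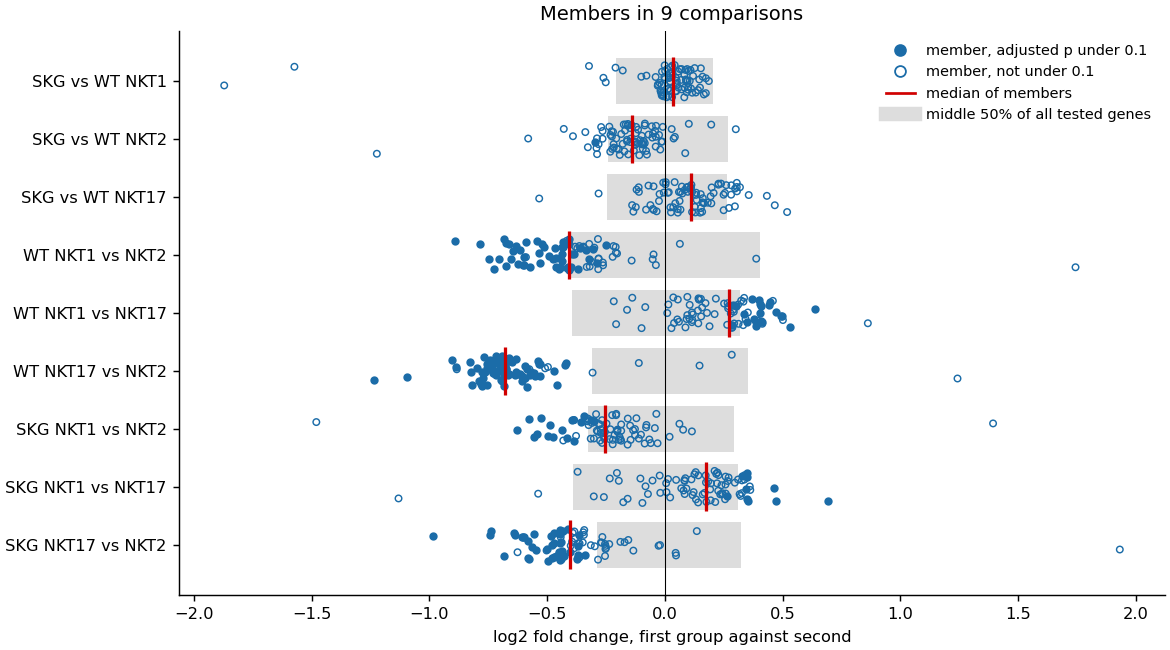
For 9 comparisons (y axis) each circle is 1 of the 83 tested members at its log2 fold change (x axis), filled where the edgeR adjusted p was under 0.1. The red line is the median of the members and the grey box holds the middle 50% of all tested genes. The median lies farthest left for WT NKT17 against NKT2, at -0.68, and near 0 for the 3 comparisons of SKG with WT.

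Core genes and paralogs were also compared as a ratio of CPM per kb within 1 library. Rpl36a (chrX:131120193-131122601, + strand) and its autosomal relative Rpl36al (chr12:70283718-70285070, - strand) encode nearly the same 60S protein. Their ratio was 1.42 to 1.55 in WT NKT2 and 1.43 to 1.54 in SKG NKT2 libraries, and 1.08 to 1.23 in all 12 NKT1 and NKT17 libraries, so NKT2 libraries stood apart in both genotypes. Rpl36a fell from 449.5, 466.8 and 459.9 CPM in WT NKT2 to 272.1, 328.3 and 203.4 CPM in WT NKT17 libraries (-0.78, edgeR adjusted p = 0.000746), and Rpl36al from 345.6, 328.4 and 325.4 CPM to 247.0, 293.9 and 205.7 CPM (-0.42, edgeR adjusted p = 0.0279). The ratio itself was not tested. Unique windows were 7.37% in Rpl36a and 29.98% in Rpl36al, and 33.2% in Rpl7 and 85.2% in Rpl7l1. How reads with several matches were counted is not given, so these ratios may not be the balance of the messages. Rpl7 to Rpl7l1 was 21.6 to 27.2 in WT NKT17 and 32.2 to 39.7 in WT NKT2 libraries, and Rpl22 to Rpl22l1 was 2.51 to 4.05 over all libraries.

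The same supply line holds proteins outside the symbol rule. Gnb2l1, the gene of the 40S scaffold Rack1, changed by -0.52 (edgeR adjusted p = 0.000259) in WT NKT17 against NKT2 and by -0.61 (edgeR adjusted p = 3.22e-05) in WT NKT1 against NKT2. Fau, which encodes a 40S protein as a fusion, did not pass in either, with -0.38 (edgeR adjusted p = 0.19) and -0.04 (edgeR adjusted p = 0.897). Of 26 tested translation factors and other TOP messages 17 fell in WT NKT17 against NKT2, beside 13.6% of all tested genes. Of these 6 were called, beside 8.97%, and the median of the 26 was -0.39. In WT NKT1 against NKT2 19 fell and 1 rose, beside 19.5% and 19.3%, and 7 of the falls were called, beside 13.7%. Eef1g, a subunit of the elongation factor that loads transfer RNAs, stood at a mean of 874.0 CPM in WT NKT2 and 461.0 CPM in WT NKT17, a change of -0.92 (edgeR adjusted p = 9.07e-06). Nap1l1, a histone chaperone with a TOP message, had means of 271.8 CPM in WT NKT2, 165.7 CPM in WT NKT17 and 111.9 CPM in WT NKT1.

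This list was also compared between genotypes. In NKT1 its summed level was higher in SKG, at 17180, 16510 and 17220 CPM against 16250, 14500 and 16180 CPM in WT. Its mean was lower in SKG in the other subsets, at 19060 against 21910 CPM in NKT2 and 14130 against 16240 CPM in NKT17. These sums were not tested. In NKT2 7 of 26 fell and in NKT17 6 of 26, beside 6.07% and 7.26% of all tested genes, and Nap1l1 was the called gene in each, with changes of -0.85 (edgeR adjusted p = 0.000181) and -0.75 (edgeR adjusted p = 0.000713). Npm1, a nucleolar chaperone of ribosome assembly, changed by -0.48 in SKG NKT2 (edgeR adjusted p = 0.000353) and changed by -0.51 in SKG NKT17 (edgeR adjusted p = 0.000183).

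Of 60 ribosome biogenesis genes 21 fell in WT NKT17 against NKT2, beside 13.6% of all tested genes. Of these 7 were called, beside 8.97%, and the median of the 60 was -0.25. In WT NKT1 against NKT2 24 fell and 2 rose, beside 19.5% and 19.3%. In SKG NKT17 against NKT2 27 fell, beside 12.7%, and 16 of them were called, beside 8.27%. Ncl, which encodes nucleolin, stood at 583.4 CPM in WT NKT2 and 340.5 CPM in WT NKT17 (-0.78, edgeR adjusted p = 7.08e-06), and at 472.5 and 251.8 CPM in the SKG subsets (-0.91, edgeR adjusted p = 9.55e-07). SKG against WT NKT17 had 8 falls and 1 rise, beside 7.26% and 5.32% of all tested genes, with Dkc1, the pseudouridine synthase of ribosomal RNA, called (-0.69, edgeR adjusted p = 0.00101). SKG against WT NKT1 had 2 rises, beside 1.74% of all tested genes. Utp20, a part of the small-subunit processome, was called (0.85, edgeR adjusted p = 0.0646).

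Known regulators were compared as well. Of 28 tested genes of the mTORC1 and Myc axis 5 rose and 4 fell in WT NKT17 against NKT2, beside 14.4% and 13.6% of all tested genes. Myc stood at means of 250.6 CPM in WT NKT1, 201.7 CPM in WT NKT2 and 83.9 CPM in WT NKT17, and was lower in NKT17 than in NKT2 by a change of -1.27 (edgeR adjusted p = 2.71e-07). Mycn, its relative, stood at 99.3 CPM in WT NKT17 and 82.7 CPM in SKG NKT17 and at 0.0 to 0.18 CPM in the other groups. Myc was higher in SKG than in WT NKT1 by 0.57 (edgeR adjusted p = 0.02), as was the TOP-message regulator Larp1, at 15.5 against 5.96 CPM (1.38, edgeR adjusted p = 0.0295). No ribosomal protein gene passed in that comparison, and the part of these regulators in the members' values was not tested. Mxd1, which competes with Myc for its partner Max, was lower in SKG cells of all 3 subsets, by changes of -1.53 in NKT1, -1.53 in NKT2 and -1.47 in NKT17 (edgeR adjusted p = 0.0405, 0.0309 and 0.0261).

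Mitochondrial ribosomal proteins, the separate set that serves the mitochondrial genome, had a median closer to 0. Of 76 tested 10 fell and 1 rose in WT NKT17 against NKT2, with a median of -0.17. Of the falls 1, Mrps6, was called, beside 8.97% of all tested genes. The falls were few beside the members' and near the 13.6% of all tested genes. Mrps6 stood at 122.3 CPM in WT NKT2, 69.1 CPM in SKG NKT2, 58.5 CPM in WT NKT17 and 47.2 CPM in WT NKT1, and was lower in SKG than in WT NKT2 (-0.83, edgeR adjusted p = 0.0053).

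Proliferation genes were also lower outside NKT2. All 8 of the list fell in WT NKT17 against NKT2 and in WT NKT1 against NKT2, beside 13.6% and 19.5% of all tested genes. Their summed level was 773 to 936 CPM in WT NKT2, 356 to 488 CPM in WT NKT1 and 391 to 555 CPM in WT NKT17 libraries. Between WT NKT1 and NKT17, where 22 members were higher in NKT1, 1 of the 8 fell and none rose. In SKG NKT17 the sum was 239 to 301 CPM, and 7 of 8 fell against WT NKT17, where no ribosomal protein gene passed. Markers of other cells were low: summed B cell genes were 0.33 to 41.4 CPM and those of double-positive thymocytes 0.9 to 47.5 CPM, both with their highest values in SKG NKT17, red cell genes were 0 to 1.5 CPM, thymic epithelial genes 3.5 to 18.2 CPM and myeloid genes 144 to 315 CPM. The part of these values in the results was not tested.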

How the data were processed

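Per the labels and the study's methods, the authors captured poly-A RNA of sorted thymocytes with a Smart-seq2-type protocol, tagged it with Tn5 (Nextera XT) and sequenced single 50-base ends. They removed tRNA, rRNA, adapter and low-complexity reads, aligned the rest with TopHat 1.4.1 and Bowtie 1.0.0, and counted reads per gene with HTSeq in union mode (0.7.1 in the submitters' processing notes). The sources name different HTSeq versions and genome builds, and the strand setting and the gene annotation are not given in the sources used here. The deposited table holds the authors' raw counts for 23337 genes. It has 2 further columns of no listed sample, which were not used.

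Genes were kept by edgeR's filterByExpr (11118 of 15582 with a count), scaled by TMM (factors 0.928 to 1.07) and tested with edgeR 4.0.16 (R 4.3.3), a robust quasi-likelihood fit over 18 libraries in 6 groups with 12 residual degrees of freedom. The common biological coefficient of variation was 21.1%. Benjamini-Hochberg adjustment ran over all tested genes, with thresholds of adjusted p 0.1 and 1.5-fold after the study's methods. CPM are TMM-scaled. The fit was also run on simulated data, and the outcome is not reported here. Alternatives were other scalings, DESeq2 1.42.0, filters, thresholds, the compared libraries alone, a replicate block and each library left out.

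Members and gene lists were chosen with earlier results of these data known. Genes named are a list fixed by role, the up to 4 largest rises and falls among passing members with a mean of at least 50 counts per comparison, the 3 highest and lowest per kb, and the largest called change of each other list. Some of these genes are not reported here. Gene positions are spans of GENCODE M1 on NCBIM37, joined by symbol, and promoters come from RefSeq on GRCm38.p6. The design text states independent experiments, but nothing ties a library to an animal, so p-values measure the spread between these libraries, which may be technical. Correlations of deviations between libraries of 1 title token were above 0.1 in every pair for 1 comparison, WT NKT17 against NKT2 (0.37, 0.251 and 0.228).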

Additional observations from a re-analysis of the deposited data

How the results depend on the processing

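Medians of the members kept their sign under the alternatives run, save those given above, of SKG against WT in NKT1 and NKT17 and of the difference of the SKG effect between NKT17 and NKT1, which turned without WT NKT1 replicate 1, SKG NKT17 replicate 1 or WT NKT17 replicate 3. Without a fold minimum the counts of called members were 74 for WT NKT17 against NKT2, 1 for SKG against WT NKT2, 51 for WT NKT1 against NKT2, 22 for WT NKT1 against NKT17, 16 for SKG NKT1 against NKT2, 10 for SKG NKT1 against NKT17 and 43 for SKG NKT17 against NKT2. Upper-quartile scaling gave 5 for SKG NKT1 against NKT2 and 14 for SKG NKT17 against NKT2, and moved the median of all genes to -0.10 in WT NKT1 against NKT2. TMM factors computed without the members, and a minimum mean of 50 counts, each gave 2 for SKG NKT1 against NKT2. With each library left out in turn the counts ran from 7 to 34 for WT NKT1 against NKT2, from 0 to 9 for WT NKT1 against NKT17, from 20 to 73 for WT NKT17 against NKT2, from 0 to 6 for SKG NKT1 against NKT2, from 0 to 1 for SKG NKT1 against NKT17, from 2 to 29 for SKG NKT17 against NKT2, and from 0 to 1 for the SKG effect of NKT17 against NKT2. The last gained its 1 member without WT NKT17 replicate 2. A replicate block by title token gave 18, 1 and 63 called members in the WT comparisons of NKT1 with NKT2, NKT1 with NKT17 and NKT17 with NKT2, and 1, 1 and 11 in the same SKG comparisons. Of 896 values of named genes under alternatives 827 kept their side of the threshold, 36 lost and 33 gained it. The cause of these changes was not tested. Each group had 3 libraries, and the median differences between genotypes, at most 1.10-fold, lay below the 1.5-fold minimum of a call. Counts of called members therefore cannot show differences of that size.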

Other observations

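Rows that the symbol rule left out were at low levels. Of the 6 rows marked -ps, Rps15a-ps4 had the most, with 906 counts over all libraries, against 34905 counts of its parent gene Rps15a, and Rplp2-ps1 had 0.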
